A study of Mus musculus with 4 samples.

Results

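Some stretches of open chromatin lie where 2 protein-coding genes meet, and the regions described here are the peaks of that kind in newborn mouse heart. Peaks of the 4 deposited lists on chromosomes 1 to 19 were joined wherever they shared at least 1 bp, which gave 20624 regions. A region was taken when its midpoint lay within 1 kb of the outer start or end of at least 2 different protein-coding genes in the RefSeq annotation of mouse build GRCm38. This held for 1348 regions, called shared regions below, of which 1320 lay at 2 genes and 28 at 3. A further 6706 regions lay at the boundary of 1 gene and 12570 at none. The assay was ATAC-seq, whose transposase inserts sequencing adapters into open DNA, and it was run on 2 wild-type (WT) and 2 miR-187 libraries (rep 1 and rep 2 of each). The labels name heart as the tissue. The methods describe newborn hearts from which endothelial cells were captured with CD31 beads. According to the methods, the miR-187 mice carry mouse miR-187 knocked into the Rosa26 locus under the Tek (Tie2) promoter, which is active in endothelial cells, on a C57BL/6J background. The study shows its mouse ATAC-seq as +/+ and KI/KI, that is, homozygous for the knock-in, while the labels of these libraries say only miR-187. The labels do not say whether replicates came from separate animals, so p-values measure only the spread between these libraries. With 2 libraries a group the 2-sided exact permutation test over 6 assignments cannot give a p below 0.333.

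Genes that sit head to head are transcribed in opposite directions from starts that lie close together, and the DNA between them can act as 1 promoter for both. Such bidirectional promoters are common in mammalian genomes, are often rich in CpG, and are frequent among genes for DNA repair, mitochondria and other functions that all cells need. Other neighbours meet start to end, where a promoter adjoins the end of the previous gene, or tail to tail. An ATAC-seq peak marks open DNA at such a place, but it does not say which of the genes is transcribed.

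Promoter windows of 5 shared regions are printed because the results below turn on them. They are RefSeq sequences of GRCm38.p6, from 250 bases before to 50 after a transcription start, 5′ to 3′ on the strand of the named gene. For Fto and Usp19 that start differs from the outer gene boundary used to define the region. Kbtbd3 (chr9:4309493-4309792, plus strand) and Fto (chr8:91313275-91313574, plus strand) had the regions with the highest minimum rank over all 4 lists. Tap1 (chr17:34187306-34187605, plus strand) led the regions of both WT lists that no miR-187 list held. Usp19 (chr9:108490426-108490725, plus strand) belongs to the 1 region of both miR-187 lists that no WT list held. Hspd1 (chr1:55088194-55088493, minus strand) is a textbook pair with a peak in 1 list. Capitals mark matches on either strand to the motifs CCGGAAG of the ETS family, CCAAT of NFY, GGGCGG of the SP and KLF family and, for the core promoter box named after it, TATAAA.
Kbtbd3: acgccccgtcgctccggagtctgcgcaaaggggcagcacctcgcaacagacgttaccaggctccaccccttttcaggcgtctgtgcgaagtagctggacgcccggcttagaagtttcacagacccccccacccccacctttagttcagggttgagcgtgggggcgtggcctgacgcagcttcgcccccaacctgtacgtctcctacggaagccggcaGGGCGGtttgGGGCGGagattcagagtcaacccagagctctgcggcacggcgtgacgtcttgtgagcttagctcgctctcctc
Fto: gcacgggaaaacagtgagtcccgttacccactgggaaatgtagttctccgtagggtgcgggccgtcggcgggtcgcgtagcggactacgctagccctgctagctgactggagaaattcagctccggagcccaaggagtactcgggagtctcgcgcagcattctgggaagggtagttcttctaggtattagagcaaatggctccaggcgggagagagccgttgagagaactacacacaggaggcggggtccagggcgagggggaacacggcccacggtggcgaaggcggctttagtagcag
Tap1: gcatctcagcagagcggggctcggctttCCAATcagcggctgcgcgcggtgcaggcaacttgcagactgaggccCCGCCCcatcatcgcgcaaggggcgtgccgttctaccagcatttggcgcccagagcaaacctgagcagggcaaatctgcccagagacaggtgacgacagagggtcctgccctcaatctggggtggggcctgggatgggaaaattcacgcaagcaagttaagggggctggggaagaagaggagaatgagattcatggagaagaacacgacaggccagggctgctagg
Usp19: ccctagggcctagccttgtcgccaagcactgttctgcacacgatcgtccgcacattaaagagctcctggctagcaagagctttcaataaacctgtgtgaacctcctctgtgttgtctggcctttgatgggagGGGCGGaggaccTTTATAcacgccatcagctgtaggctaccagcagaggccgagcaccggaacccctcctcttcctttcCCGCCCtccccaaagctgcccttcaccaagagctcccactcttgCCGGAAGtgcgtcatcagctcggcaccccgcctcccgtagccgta
Hspd1: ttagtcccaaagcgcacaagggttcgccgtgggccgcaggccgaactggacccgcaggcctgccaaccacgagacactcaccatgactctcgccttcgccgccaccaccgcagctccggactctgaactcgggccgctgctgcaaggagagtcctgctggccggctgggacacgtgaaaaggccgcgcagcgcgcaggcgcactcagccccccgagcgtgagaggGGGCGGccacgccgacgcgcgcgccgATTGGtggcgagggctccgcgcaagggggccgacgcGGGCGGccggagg

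The Kbtbd3 window held 2 GGGCGG matches, and the start of Aasdhppt lay 126 bp before that of Kbtbd3. The Tap1 window held 1 CCAAT and 1 GGGCGG match. The Usp19 window held 1 CCGGAAG, 2 GGGCGG and 1 TATAAA match. The Hspd1 window held 1 CCAAT and 2 GGGCGG matches. The Fto window held none of the 9 motifs searched, which says only that these letters are not in it. A match is a description of the letters and not a bound site.

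The number of shared regions with a peak was 713 in WT rep 1, 1028 in WT rep 2, 649 in miR-187 rep 1 and 101 in miR-187 rep 2. Both miR-187 libraries were below both WT libraries, and the miR-187 libraries were further apart than the WT libraries. The WT libraries averaged 870.5 ± 223 regions and the miR-187 libraries 375 ± 387 (SD, n = 2 each), a change of -495.5 (exact permutation p = 0.333). The change was -771 without miR-187 rep 1 and -219.5 without miR-187 rep 2. As a share of the regions in a list, shared regions made up 7.69% in WT rep 1 (95% Wilson interval 7.17 to 8.25), 8.50% in WT rep 2 (8.02 to 9.01), 8.83% in miR-187 rep 1 (8.20 to 9.50) and 6.92% in miR-187 rep 2 (5.73 to 8.34). These intervals cover counting error only. The miR-187 shares lay on either side of the WT shares, and the group means differed by -0.225 percentage points (exact permutation p = 1.00). That difference was -1.15 points when the libraries were thinned to the same inferred background density. It was -3.01 points when each list was cut to its strongest 1461 peaks, where the difference in number was -44.0. These equal lists held 161 shared regions in WT rep 1 and 189 in WT rep 2. They held 162 in miR-187 rep 1 and 100 in miR-187 rep 2. There miR-187 rep 1 lay between the WT libraries in number and in share, and miR-187 rep 2 alone lay below both. With full lists, the difference in share turned to 0.159 points without WT rep 2 and to 0.752 points without miR-187 rep 2. The plot of numbers and shares by library shows that in the full lists the counts differed much more between libraries than the shares did.

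**Figure D1:**
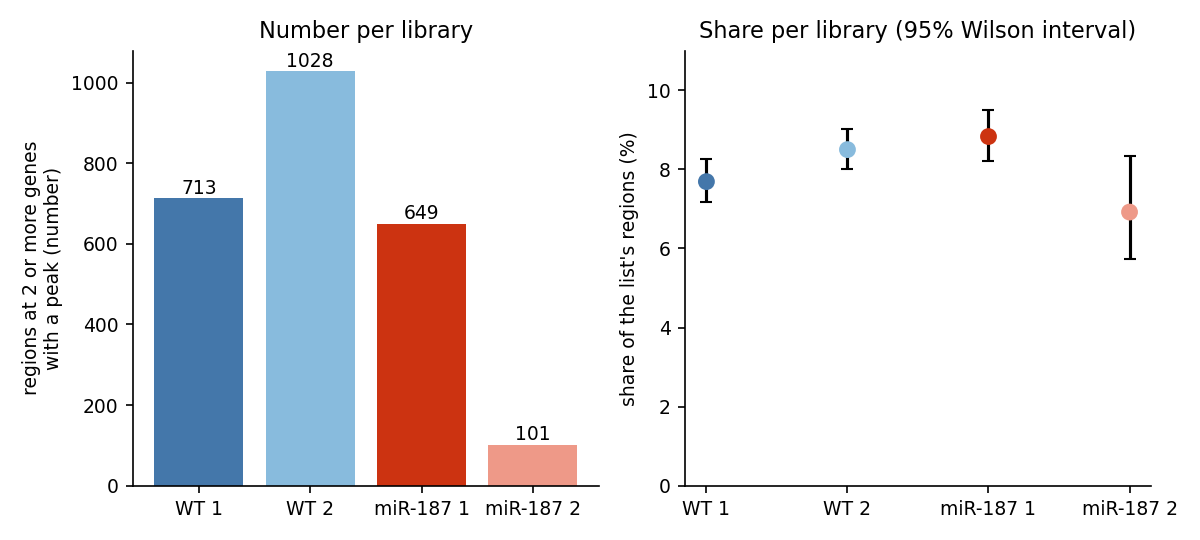
Number of regions at 2 or more genes with a peak in each of the 4 libraries (left, bars) and their share of all regions in that library's list in percent (right, points with 95% Wilson intervals). The number ran from 101 to 1028, while the share stayed between 6.92% and 8.83%.

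Depth, like these numbers, was highest in WT rep 2 and lowest in miR-187 rep 2. Between them the order differed, since miR-187 rep 1 was deeper than WT rep 1 but had fewer shared regions. The background read density inferred from the peak values was 1751 reads per Mb in WT rep 1, 5227 in WT rep 2, 2016 in miR-187 rep 1 and 1032 in miR-187 rep 2, and the lists held 9307, 12155, 7407 and 1461 peaks on chromosomes 1 to 19. When every library was thinned to the density of miR-187 rep 2, the expected number of shared regions was 447, 230, 390 and 101 in the same order. The groups then overlapped, and the means differed by -93.0 (exact permutation p = 0.667). The genotype and the depth of miR-187 rep 2 cannot be told apart.

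Peaks at shared regions had a larger median width than those with no protein-coding gene start or end within 1 kb in every list, a class that includes regions inside genes. Their median width was 313 bp in WT rep 1, 396 bp in WT rep 2, 333 bp in miR-187 rep 1 and 233 bp in miR-187 rep 2. At the boundary of 1 gene it was 302, 375.5, 313 and 229.5 bp, and at no boundary 251, 287, 262.5 and 204 bp. Peaks at shared regions were thus at most 20.5 bp wider at the median than peaks at 1 gene, which is little beside the spread between libraries. The library medians averaged 354.5 ± 58.7 bp for WT and 283 ± 70.7 bp for miR-187 (SD, n = 2 each), and so differed by -71.5 bp (exact permutation p = 0.667). The difference was -113 bp without WT rep 1, -29.5 bp without WT rep 2, -124.5 bp without miR-187 rep 1, -22.0 bp without miR-187 rep 2 and -149 bp with equal lists. WT rep 1 was narrower than miR-187 rep 1, so the groups overlapped.

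Strength was measured as the percentile rank of a peak's −log10 q within its own list, where the median of all peaks lies at about 50. The median rank at shared regions was 57.0 in WT rep 1, 61.1 in WT rep 2, 56.7 in miR-187 rep 1 and 54.5 in miR-187 rep 2. At 1 gene it was 59.5, 58.3, 54.1 and 54.5, and at no boundary 44.0, 42.0, 46.1 and 48.3. The median rank at shared regions was therefore above that of regions at no boundary in all 4 lists, but not regularly above that of regions at 1 gene. The group difference in rank was -3.46, from 59.0 ± 2.95 in WT to 55.6 ± 1.54 in miR-187 (SD, n = 2 each; exact permutation p = 0.333). It was -5.55 without WT rep 1, -1.17 without WT rep 2 and -9.58 with peaks of −log10 q 5 or more, and it turned to 5.01 when each list was reduced to its strongest 1461 peaks. The median summit held 9 reads in WT rep 1, 16 in WT rep 2, 10 in miR-187 rep 1 and 7 in miR-187 rep 2, so single peaks rest on few reads.

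**Figure D2:**
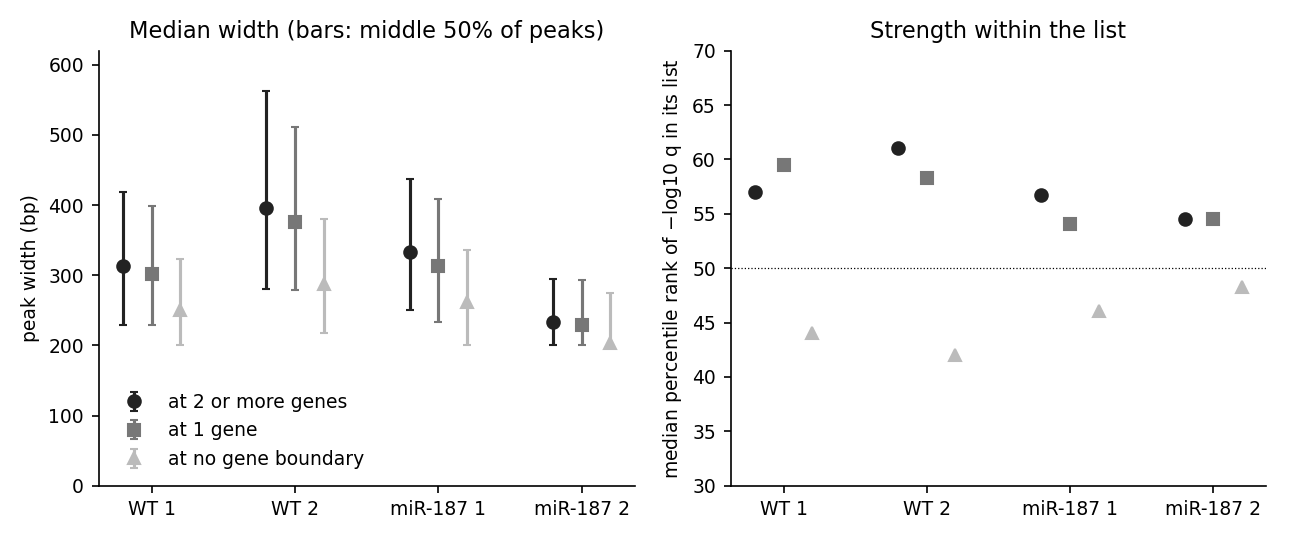
Median peak width in bp with the middle 50% of peaks (left) and median percentile rank of −log10 q within the list (right) for regions at 2 or more genes, at 1 gene and at no gene boundary in the 4 libraries. Regions at no gene boundary had the lowest median width and rank in each library, and the narrowest medians were those of miR-187 rep 2.

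Shared regions recurred between lists more often than other regions. A peak in at least 2 lists was found for 57.0% of the shared regions, 49.6% of the regions at 1 gene, 20.7% of those at no boundary and 32.5% of all regions. Of the 1348 shared regions, 580 were in 1 list, 432 in 2, 297 in 3 and 39 in all 4. The 39 regions were 2.89% of the shared regions, against 1.43% of all regions and 2.54% of those at 1 gene. The largest combination was a peak in WT rep 2 alone, with 320 regions, followed by 267 in all libraries but miR-187 rep 2 and 182 in both WT libraries alone. WT rep 1 and miR-187 rep 1, which are closest in depth, shared 361 regions, which is 50.6% of the former and 55.6% of the latter. The WT libraries shared 501, which is 70.3% of WT rep 1 and 48.7% of WT rep 2.

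Both WT lists held 501 shared regions, of which 182 or 36.3% (95% Wilson interval 32.2 to 40.6) had no peak in either miR-187 list. The same was true of 42.2% of all regions in both WT lists, 38.2% of those at 1 gene and 49.8% of those at no boundary. The share at shared regions was thus below that of all regions, and its interval held that at 1 gene. With peaks of −log10 q 5 or more, 57.3% of shared regions and 58.6% of all regions had no miR-187 peak. It fell with the strength of the WT peak, from 50.3% of 151 regions in the weakest tertile to 40.9% of 181 in the middle and 18.9% of 169 in the strongest. At 1 gene these shares were 52.4%, 37.9% and 26.0%. Nearly all of the retained regions were retained by miR-187 rep 1, which had a peak at 61.1% of the 501, against 10.4% in miR-187 rep 2. Without miR-187 rep 1 the share with no miR-187 peak was 89.8%, against 90.3% of all regions. In the other direction, 1 of 57 shared regions in both miR-187 lists had no WT peak, or 1.75% (0.310 to 9.29), against 7.02% of all such regions.

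The members were mostly head-to-head pairs. RefSeq promoter windows gave the strand of 16456 of 20661 genes, and with it 780 shared regions (57.9%) lay at the starts of genes on opposite strands that face away from each other or overlap there. A start and an end met at 218 regions (16.2%), 17 lay at 2 starts on 1 strand, 18 were tail to tail, and for 315 (23.4%) the strand of a gene was not given. Head-to-head regions had a peak in at least 2 lists in 60.6% of cases, start-and-end regions in 50.0% and tail-to-tail regions in 27.8%. Among regions in both WT lists, 104 of 307 head-to-head regions (33.9%) and 30 of 69 start-and-end regions (43.5%) had no miR-187 peak. Head-to-head peaks had a median width of 318, 418.5, 343 and 212.5 bp in WT rep 1 and 2 and miR-187 rep 1 and 2, and start-and-end peaks 295, 326, 315 and 269 bp.

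In 506 of the 780 head-to-head regions the starts were separated, with a median gap of 102.5 bp and a middle range of 47.0 to 237 bp. In the other 274 the annotated genes overlapped, by 245 bp at the median. The gene boundary is the outermost annotated start, so a gene with an upstream alternative start counts as overlapping. The rule holds a region's midpoint within 1 kb of both boundaries, so the distance from the summit to the middle of the pair is a description. Its median was 151 bp in WT rep 1, 137.5 bp in WT rep 2, 151 bp in miR-187 rep 1 and 208 bp in miR-187 rep 2, and 66.5%, 69.0%, 69.2% and 55.9% of summits lay within 250 bp. Where the starts were separated, the summit fell between them at 30.1%, 37.1%, 32.9% and 21.4% of regions. Over all shared regions the median distance from the summit to the middle of the 2 nearest boundaries was 177.5, 171.5, 175.5 and 226.5 bp, and the groups differed by 26.5 bp (exact permutation p = 0.667). miR-187 rep 2 alone was apart, and the difference was 1.75 bp without it, 66.0 bp without miR-187 rep 1, 53.4 bp with equal lists and 8.75 bp with peaks of −log10 q 5 or more.

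**Figure D3:**
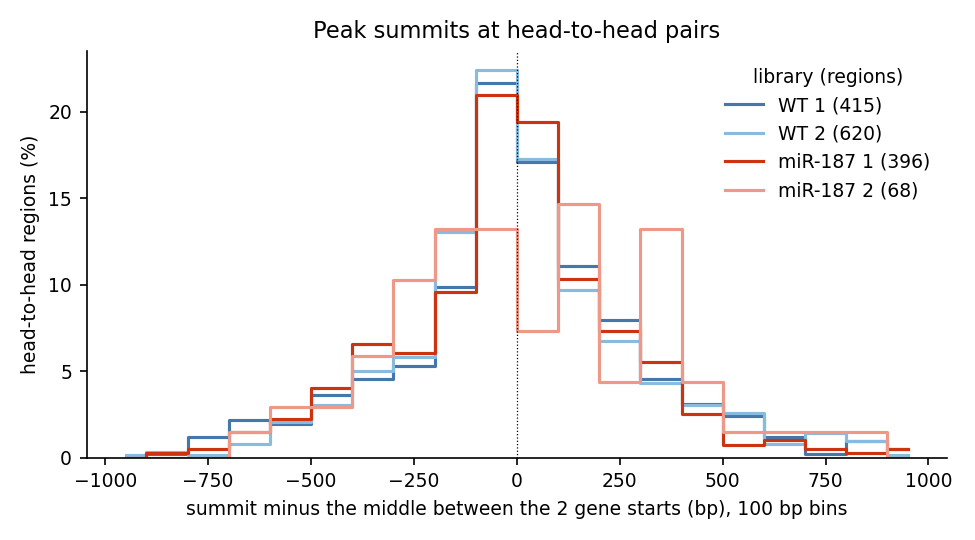
Position of the peak summit relative to the middle between the 2 gene starts, in bp, at head-to-head regions, as a percentage of such regions in bins of 100 bp, 1 line per library with the number of regions in the legend. In 3 libraries the summits gathered around the middle, and the 68 summits of miR-187 rep 2 were spread more widely.

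These regions were chosen because they had a peak, so the gene table was also read from the other side. It holds 868 head-to-head pairs with starts at most 1000 bp apart and 13133 lone starts with no boundary of another gene within 2 kb. A summit lay within 1 kb of the middle of the pair for 405 pairs (46.7%) in WT rep 1, 583 (67.2%) in WT rep 2, 391 (45.0%) in miR-187 rep 1 and 68 (7.83%) in miR-187 rep 2. For lone starts the shares were 17.5%, 25.8%, 16.8% and 2.45%. A head-to-head pair thus had a peak 2.67, 2.60, 2.68 and 3.20 times as often as a lone start. The mean ratio was 2.79 ± 0.274 (SD, n = 4 libraries), and the Wilson intervals of the 2 shares did not overlap in any library. These intervals cover counting error only. The 4 libraries were read at the same pairs and starts, so the SD is a spread between libraries only. In at least 1 of the 4 lists, 78.6% of pairs and 32.9% of lone starts had a peak. The WT and miR-187 libraries of similar depth, WT rep 1 and miR-187 rep 1, gave nearly the same ratio. The share of pairs with a peak had no common order with the gap in the 4 libraries. In WT rep 2 it was 61.6% for 310 overlapping pairs, 69.4% for 278 pairs with a gap of up to 100 bp, 72.6% for 124 pairs at 101 to 200 bp, 73.8% for 107 pairs at 201 to 400 bp and 61.2% for 49 wider pairs. In WT rep 1 it lay between 43.9% (201 to 400 bp) and 55.6% (101 to 200 bp). In miR-187 rep 1 it was highest at 101 to 200 bp (49.2%) and lowest for the widest gaps (36.7%), and in miR-187 rep 2 likewise, at 9.68% and 2.04%, the latter being 1 of 49 pairs.

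CpG content also differed between pairs and lone starts. Among starts with a GC content of at least 50% and a CpG observed over expected ratio of at least 0.6, a choice made after the data were seen, 592 pairs and 5586 lone starts remained. Pairs then had a peak in 50.0%, 72.3%, 49.0% and 9.12% of cases and lone starts in 32.0%, 47.0%, 31.0% and 4.55%. The ratio was 1.56, 1.54, 1.58 and 2.01, and its mean fell from 2.79 to 1.67. Pairs remained above lone starts in each library. A pair's window holds 2 starts and that of a lone start 1, and the part this plays was not tested.

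**Figure D4:**
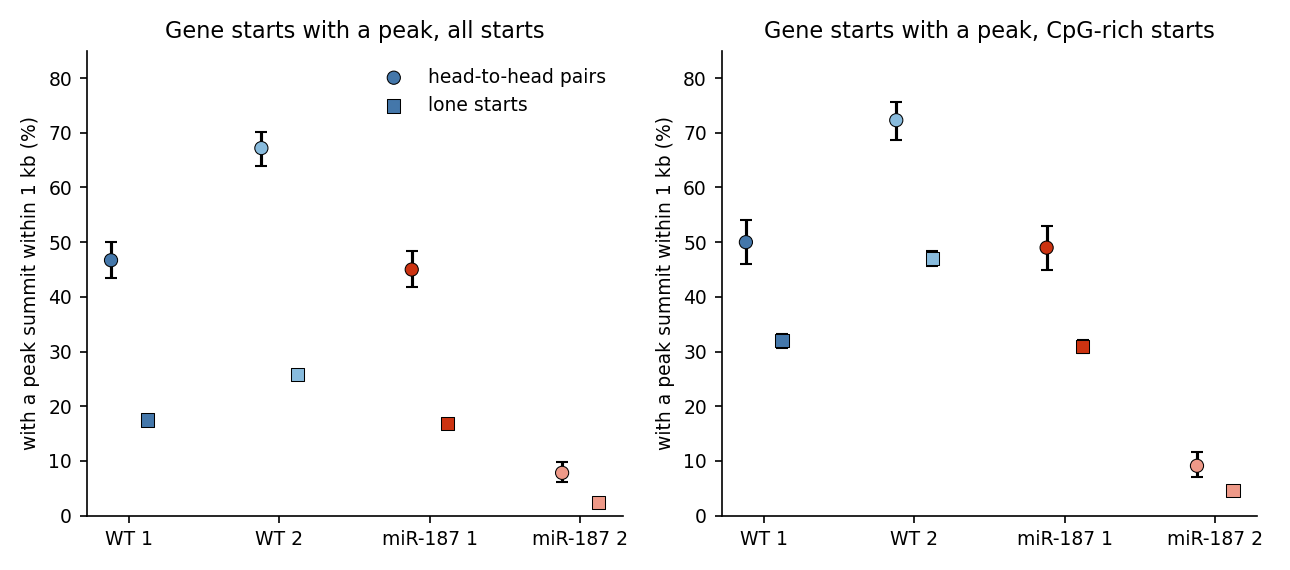
Percentage of head-to-head gene pairs (circles) and of lone gene starts (squares) with a peak summit within 1 kb in each library, for all starts (left) and for CpG-rich starts (right), with 95% Wilson intervals. Pairs were above lone starts in all 4 libraries in both panels, and the distance was smaller for CpG-rich starts.

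The shared region with the highest minimum rank over the 4 lists lay between Kbtbd3, which encodes a BTB and kelch domain protein, and Aasdhppt, which attaches the phosphopantetheine cofactor to carrier proteins (chr9:4309431-4310174). Its −log10 q was 10.1 in WT rep 1, 18.9 in WT rep 2, 13.5 in miR-187 rep 1 and 7.01 in miR-187 rep 2, above 97.8% or more of each list. The summits lay at -69, -92, -18 and -94 bp from the Kbtbd3 start in the printed window, all between the 2 gene starts. Fto, an RNA demethylase, and Rpgrip1l, a protein of the ciliary transition zone, shared the second (chr8:91313165-91313852), with −log10 q of 6.84, 12.9, 7.19 and 5.52. Its 4 summits fell within 31 bp of the middle of a 76 bp gap. WT rep 2 had the highest value at both loci and miR-187 rep 2 the lowest, which is also the order of depth at its ends.

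The other regions named by this rule joined genes of several roles, and 7 of them are given here. Mrps16, of the mitochondrial ribosome, started near the end of Cfap70, a cilia protein, with ranks of 96.7, 95.9, 95.7 and 87.3. Etfdh, which passes electrons from fatty acid oxidation to the respiratory chain, faced 4930579G24Rik and was strongest in miR-187 rep 1, with ranks of 78.5, 89.8, 99.3 and 71.6. Nkiras1 and Rpl15, a cytosolic ribosomal protein, had ranks of 69.9, 77.4, 95.1 and 91.7 and −log10 q of 4.37, 7.05, 8.53 and 5.08. Slc4a2, an anion exchanger, and Cdk5, a kinase, had ranks of 76.5, 85.9, 94.5 and 93.8 and −log10 q of 4.78, 8.43, 8.31 and 5.37. At both loci the miR-187 ranks were above the WT ranks, while the −log10 q of the groups overlapped, and ranks come from lists of unequal length. Clcn2, a chloride channel, and Polr2h, an RNA polymerase subunit, had 89.7, 70.1, 68.8 and 94.1. Abca17 and Abca3, both of the ABC transporter family, had 67.2, 62.1, 94.3 and 60.7. Zfp653, a zinc finger gene, and Ecsit, which takes part in the assembly of respiratory complex I, had 90.1, 58.3, 87.4 and 95.4.

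Among the 182 regions in both WT lists alone, the highest minimum rank belonged to Tap1, the peptide transporter of antigen presentation, and Psmb9, a subunit of the immunoproteasome (chr17:34187149-34188028). Its −log10 q was 9.40 in WT rep 1 and 15.7 in WT rep 2, with widths of 880 and 687 bp, and no peak was listed in either miR-187 library. The summits lay 138 and 192 bp after the Tap1 start, on the Tap1 side of the 226 bp gap. H2bc12 and H2ac12, a histone pair, had 7.64 and 10.3. Cript and Pigf, the latter of the glycosylphosphatidylinositol anchor pathway, had 9.58 and 9.46. Ccs, the copper chaperone of superoxide dismutase, and Ccdc87 had 6.09 and 15.0. A missing peak is a value under the authors' threshold and not a measured zero. In the 1 region of both miR-187 lists alone, the end of Lamb2, a laminin chain, meets the start of Usp19, a deubiquitinase. This region had −log10 q of 4.02 and 3.19, with 11 and 6 reads at the summit. Its ranks of 49.1 and 58.9 were near the middle of the lists. Its summits lay at -51 and -299 bp from the start in the printed Usp19 window. That start lies after the outer annotated start of Usp19 (chr9:108490607), which was used to define the region.

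A list of 20 neighbouring gene pairs was also looked up, and 13 had at least 1 shared region. That is not a high share, since 78.6% of the 868 head-to-head pairs had a summit within 1 kb in at least 1 list. Npat, a regulator of histone transcription, and Atm, the DNA damage kinase, had the strongest single peak after that of Tap1 and Psmb9, with −log10 q of 5.53, 12.4 and 4.87 in WT rep 1 and 2 and miR-187 rep 1. Prkdc, the DNA-dependent protein kinase, and Mcm4, of the replicative helicase, had 5.67, 5.31 and 4.51 in the same libraries. Hspd1 and Hspe1, the mitochondrial chaperonin and its partner, had a peak in WT rep 2 alone, at 5.14 and 16 summit reads. Mrps12 and Sars2, both of mitochondrial translation, were likewise found in WT rep 2 alone, at 5.88. Ppat and Paics, which act in purine synthesis, had 6.77 in WT rep 2 and 3.71 in miR-187 rep 1. Uqcrh, a respiratory chain subunit, and Lrrc41 had 4.51 in WT rep 2. At Wrap53 and Trp53 the peak of 3 lists lay at -864, -906 and -852 bp from the middle of the pair, on the Wrap53 side, and a separate peak of miR-187 rep 1 lay at -52 bp. None of the pairs named in this paragraph had a peak in miR-187 rep 2, where 7.83% of the 868 head-to-head pairs had one.

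**Figure D5:**
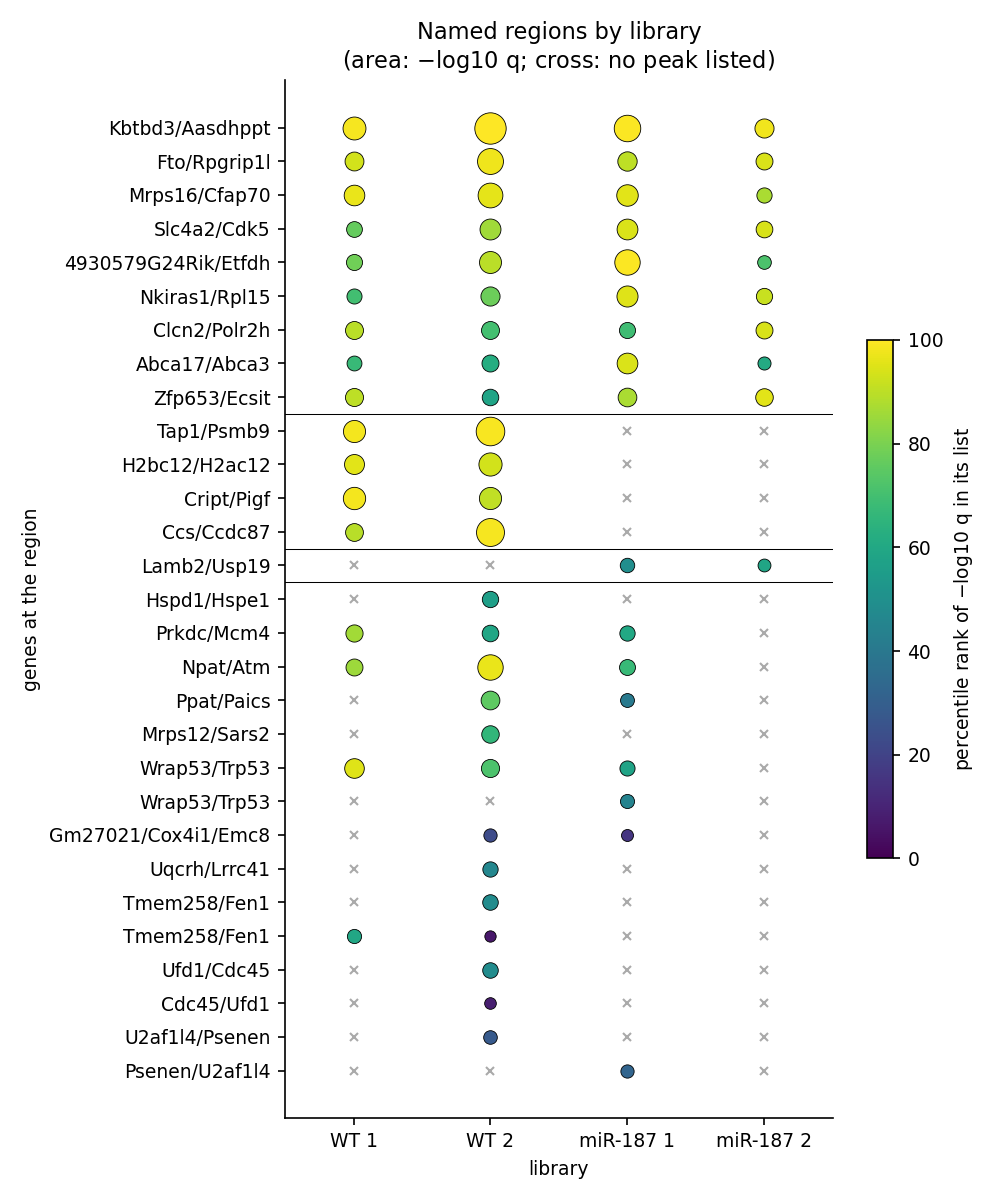
Peaks at the named regions (rows) in the 4 libraries (columns), with circle area proportional to −log10 q, colour for the percentile rank within the list and a cross where no peak was listed. From the top, blocks hold 9 of the 10 regions with the highest minimum rank in all 4 lists, 4 of the 5 highest in both WT lists alone, the 1 in both miR-187 lists alone, and the other textbook pairs shown, most of which had a peak in WT rep 2.

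Gene families differed in how often they lay at shared regions. Families were taken by gene symbol, so some hold interacting proteins or assembly factors, such as Psmc3ip and Psmg2 among the proteasome genes and Hspbap1 among the chaperones. Overall 2359 of 20661 protein-coding genes (11.4%) did. The share was 43.1% for replication-dependent histones (25 of 58), 41.0% for mitochondrial ribosomal proteins (32 of 78), 39.1% for mitochondrial protein import (9 of 23), 36.4% for tRNA synthetases (12 of 33), 35.4% for splicing factors (23 of 65), 35.3% for the respiratory chain (36 of 102), 34.2% for DNA replication and repair (26 of 76) and 33.3% for RNA polymerase subunits (9 of 27). It was 24.0% for genes with proteasome symbols, 21.2% for those with chaperone symbols and 20.0% for cytosolic ribosomal proteins, 6.75% for zinc finger genes (28 of 415), and none of 1104 olfactory receptors was there. Gene spacing moved with these shares. In all, 84.5% of histone genes and 64.1% of mitochondrial ribosomal genes had another gene's boundary within 2 kb, against 33.2% of all genes and 1.72% of olfactory receptors. Of genes with such a neighbour, 34.4% overall were at shared regions, 64.0% of the mitochondrial ribosomal genes, 65.7% of the splicing factors, 51.0% of the histones and 32.9% of the zinc finger genes.

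By library, mitochondrial ribosomal genes at a shared peak numbered 17 in WT rep 1, 24 in WT rep 2, 17 in miR-187 rep 1 and 2 in miR-187 rep 2, so the WT and miR-187 libraries of similar depth had the same number. Beside Mrps16, given above, the regions with the highest rank in any list were those of Mrpl40 and Hira, a histone chaperone, with −log10 q of 9.90, 4.82 and 6.32 in the 3 deeper libraries, and of Mrps18c and Helq, a DNA helicase, with 5.57, 5.19 and 10.3. Respiratory chain genes numbered 22, 29, 18 and 3, with Atp5c1 beside Kin at 7.62, 4.48 and 3.03. DNA replication and repair genes numbered 14, 24, 16 and 2, and splicing factors 16, 19, 14 and 1. Histone genes numbered 13, 21, 7 and 0. Over all protein-coding genes the numbers were 1392, 1930, 1265 and 203, also lower in both miR-187 libraries. The 4 histone regions with a peak in miR-187 rep 1 were H2bc15/H2ac15 at a −log10 q of 4.77, H2bc22/H2ac22 at 4.60, H2ac8/H2bc8 at 2.73 and H1f4/H2bc6 at 8.43. Histone genes are near-identical copies, so their reads could be assigned to the wrong copy. These counts have no test, because genes of a family share their libraries.

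Further members of these families showed how far the libraries differed at single loci. Snapc5 and Rpl4, of the cytosolic ribosome, had −log10 q of 5.88, 13.8 and 12.4 in WT rep 1 and 2 and miR-187 rep 1. Ercc8, of transcription-coupled DNA repair, and Ndufaf2, an assembly factor of respiratory complex I, had 7.86, 5.96 and 6.12 over a gap of 59 bp. Timm8b, which guides proteins into mitochondria, and Sdhd, a succinate dehydrogenase subunit, had 4.59, 2.88 and 8.29. Zfp142 and Bcs1l, a chaperone of respiratory complex III, had 3.17, 8.24 and 8.79, with summits at -21, -13 and -30 bp from the middle. Yars, a tyrosyl-tRNA synthetase, and S100pbp had 4.56, 15.4 and 3.13. None of these 5 regions had a peak in miR-187 rep 2, which held 7.49% of all shared regions. The family regions of Nkiras1 and Rpl15, Clcn2 and Polr2h, and Zfp653 and Ecsit, given above, did have one. Among the 5, the library with the highest value differed.

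The widest peak at a shared region was 1170 bp in WT rep 1, at Mboat7, which remodels membrane phospholipids, and Tsen34, a subunit of the tRNA splicing endonuclease, where WT rep 2 had 1043 bp and miR-187 rep 1 had 699 bp. In WT rep 2 it was 1312 bp at Hdlbp, an RNA-binding protein, and Septin2, of the septin cytoskeleton, against 403 bp in WT rep 1 and 350 bp in miR-187 rep 1. In miR-187 rep 1 it was 949 bp at Acin1, a splicing-associated protein, and 1700123O20Rik, against 328 bp in WT rep 1 and 302 bp in WT rep 2. In miR-187 rep 2 it was 564 bp at Tyw5 and Maip1, where WT rep 1 had 200 bp, WT rep 2 had 692 bp and miR-187 rep 1 had 321 bp. These 4 loci were picked for the width in 1 library, so that library's value says nothing of the groups. A region at 3 genes, Anxa9, LOC115489748 and Cers2, a ceramide synthase, was in all 4 lists with −log10 q of 6.69, 10.5, 11.6 and 2.04.

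Promoter sequence was compared with no test, since the windows of a pair share DNA. The 1378 RefSeq windows at head-to-head regions had a median GC content of 62.3% and a CpG observed over expected ratio of 0.840, against 62.0% and 0.791 for 4484 windows at 1 gene with a peak and 56.7% and 0.597 for all 16456. CCGGAAG was in 28.7% of the head-to-head windows, 18.1% of those at 1 gene and 12.3% of all, and TCTCGCGA in 5.22%, 2.41% and 1.48%. AAGATGG, the YY1 motif, was in 9.51%, 6.87% and 6.40%. GGGCGG went the other way between the classes with a peak, at 65.3%, 70.5% and 47.3%. TATAAA was in 4.86%, 6.42% and 13.5%, and TGANTCA, the AP-1 motif, in 3.19%, 4.19% and 7.12%. GCATGCG, the NRF1 motif (7.55%, 8.01% and 4.58%), CCAAT (41.4%, 40.3% and 39.1%) and TGACGTCA, the CRE motif (3.92%, 3.77% and 2.40%), differed little between head-to-head windows and those at 1 gene. CCGGAAG was in 24.6% of 435 windows at head-to-head regions of 3 or 4 lists and in 32.1% of 446 windows at those of 1 list, so it was not more frequent at the regions that recurred.

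Few cell type genes could lie at shared regions. Of 18 endothelial markers, 6 had a neighbouring gene boundary within 2 kb and 1 lay at a shared region, Nos3, the endothelial nitric oxide synthase, beside Atg9b in WT rep 2 alone with a −log10 q of 4.44. None of 18 cardiomyocyte, 8 fibroblast, 6 mural, 6 immune or 5 erythroid markers did, of which 3, 0, 4, 3 and 0 had such a neighbour. Of all genes, 11.4% lay at shared regions, and 34.4% of those with such a neighbour. The shared regions therefore do not check the labelled tissue. At the 1 kb limit of the rule, 61 regions had their second boundary at 900 to 1000 bp and 45.9% of these were in at least 2 lists, against 45.7% of 46 regions at up to 1100 bp.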

How the data were processed

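ATAC-seq peak lists of 4 libraries, WT and miR-187 with 2 each by the sample titles, were analysed. Per the submitters' processing notes, Bowtie2 2.2.6, SAMtools 1.10 and MACS2 2.2.7.1 and build mm10 were used, with roles and settings not given in the sources used here. For each peak the authors deposited a score (10 times −log10 q, cut to a whole number), the fold enrichment, a −log10 p and a −log10 q. The deposited score was not used otherwise. Peaks outside chromosomes 1 to 19 (151, 163, 95 and 22) were left out. A region's peak in a library is its strongest one.

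Whole-number summit reads and the background were solved from the fold and −log10 p to within 0.0005, which succeeded for 100% of peaks. The lowest background divided by 200 bp gave the read density, an inference, since read totals were not used here. Gene boundaries, promoter windows and strand came from RefSeq GRCm38.p6. Each library gave 1 value, tested between groups by a 2-sided exact permutation test, and shares over regions got no test. Regions were named by rule: the highest minimum rank in all 4 lists (10) and in both lists of only 1 group (5), the listed pairs, those with the most genes, and the strongest per family and library. Of the regions so named, 2 are not reported here. Members and lists were chosen with earlier results of these data known. Alternatives were a −log10 q of at least 5, equal lists, windows of 500 bp and 2 kb, 50% overlap, thinning, leaving out each library and a block for the replicate number. The solver, merging and tests were tested on simulated data. Software was scipy 1.17.1, numpy 2.4.6, pandas 2.3.3 and matplotlib 3.10.9 under Python 3.11.15.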

Additional observations from a re-analysis of the deposited data

How the results depend on the processing

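Of 88 alternative values, 66 kept their direction or, with no test, stayed near their value, 19 moved and 3 reversed. No group test could pass 0.05 under any setting, so the p-values say nothing of stability, and values that kept their direction could still change in size. The difference in the number of shared regions went from -495.5 to -93.0 when thinned and -44.0 with equal lists, that in the share of a list from -0.225 to -1.15 and -3.01, and that in summit distance from 26.5 to 1.75 bp without miR-187 replicate 2. The share of shared regions in both WT lists with no miR-187 peak was 36.3%, and became 57.3% with peaks of −log10 q 5 or more and 44.8% with equal lists, against 42.2%, 58.6% and 49.4% of all regions. Regions in both WT lists alone numbered 182, then 71 and 26 under these settings. Regions in both miR-187 lists alone numbered 1, then 0 and 9, and 0 with 50% overlap. The ratio of pairs to lone starts was 2.79, then 3.07 with peaks of −log10 q 5 or more and 1.67 for CpG-rich starts, both tried after the data were seen. Leaving out each library in turn, the first share ran from 38.8% to 89.8% (44.9% to 90.3% of all regions), WT-only regions from 194 to 510 and miR-187-only regions from 2 to 94. In these settings the group that lost a library is represented by its 1 remaining list. The values are therefore not of the same kind as those from both lists of each group. The difference in the share of a list ran from -1.12 to 0.752 percentage points. It reversed to 0.159 without WT replicate 2 and to 0.752 without miR-187 replicate 2. The difference in strength rank reversed to 5.01 with equal lists. The cause of these changes was not tested. The median summit at shared regions in miR-187 replicate 2 held 7 reads.

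With the replicate number as a block, the difference in the number of shared regions stayed at -495.5, with an exact sign-flip p of 0.500, the smallest that 2 pairs allow. No call could change. The labels do not say that the numbers mark a shared animal or day, and the replicate differences correlated at 0.0211 across the 1348 shared regions, which share the libraries.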

Other observations

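At some gene pairs the peaks did not merge into 1 region. The 1348 shared regions fell on 1202 gene combinations, and 143 of these had at least 2 separate regions, 289 in all. Of these 289 regions, 63.3% were in 1 list, against 37.5% of the other 1059. Psenen and U2af1l4 had 1 peak in WT rep 2, at -514 bp from the middle of the pair, and another in miR-187 rep 1, at 200 bp. Ufd1 and Cdc45, the latter of the replicative helicase, had 2 separate peaks in WT rep 2, with −log10 q of 4.65 and 2.62. A peak that is absent from a list at 1 region can thus have a neighbour at the same pair. The miR-187-only region of Lamb2 and Usp19 and the WT-only regions were counted by region and not by pair.

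The strongest shared region of any list lay at Etfrf1, a regulator of the mitochondrial electron transfer flavoprotein, and Casc1. Its −log10 q was 25.9 in WT rep 2, with 43 reads at the summit, against 7.18 in WT rep 1 and 3.42 and 2.61 in the miR-187 lists. Its rank was 94.3 and 99.9 in the WT lists, but 34.1 and 39.0 in the miR-187 lists. It was picked for its value in WT rep 2. The region of Psma4, a proteasome subunit, with AY074887 and Hykk was picked as the strongest of miR-187 rep 1, where its −log10 q was 14.5. It was 3.52 and 3.95 in WT rep 1 and 2, and no peak was listed in miR-187 rep 2. Aars, an alanyl-tRNA synthetase, and Exosc6 had a peak in miR-187 rep 1 alone, at a −log10 q of 10.7.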
